A study of Mus musculus with 2 samples.

Results

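The upper-layer cortical identity genes Cux1, Cux2, Rorb, Rasgrf2, Pou3f1, Pou3f2 and Pou3f3 were taken by symbol from the GENCODE mouse annotation on the mm10 (GRCm38) genome build, and all 7 symbols were matched, out of 21938 protein-coding genes and 55450 genes in all. Accessibility at these genes was measured by DNase-seq, in which nuclei are cut lightly with DNase I and the cut sites are sequenced, so that DNA free of nucleosomes appears as peaks of cuts and bases covered by a bound protein inside them as footprints. The samples form 1 group of 2 libraries, replicate 1 and replicate 2, from frontal cortex tissue of female B6CASTF1/J mice aged 25 days, the F1 hybrid of C57BL/6J and CAST/EiJ. The labels name separate tissue samples for the libraries but the same donor identifier, so the spread between libraries may not be a spread between animals. There is no second condition, and the values below describe this tissue without a test.

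Neurons of the cerebral cortex are stacked in layers, and those of the upper layers mostly connect cortical areas with one another. Cux1 and Cux2 encode CUT-type homeodomain transcription factors of upper-layer neurons that shape their dendrites and synapses, Rorb encodes a nuclear receptor that marks the thalamus-receiving layer, and Rasgrf2 encodes a Ras guanine nucleotide exchange factor whose transcripts mark the superficial layers. Pou3f1, Pou3f2 and Pou3f3 encode closely related POU-homeodomain factors, also known as Oct6, Brn2 and Brn1, that act in late-born neuron progenitors and in their migrating daughters. All of these genes except Rasgrf2 thus encode DNA-binding regulators, and the POU genes are intronless.

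The longer of the peak lists of each library held 85603 peaks in replicate 1 and 87847 in replicate 2, with median values of 0.627 and 0.679. The value of a peak is the authors' read-depth normalized signal, and neither its scale nor the depth of the libraries is stated in the labels or files used here. Every peak value was a whole multiple, within 0.1, of a step of 0.00565 in replicate 1 and 0.00571 in replicate 2, and the strongest promoter peaks of the 7 genes stood at 150 to 853 steps. Of the excitatory neuron markers 5 of 5 were open at a promoter in replicate 1 and replicate 2 alike, against 4 of 6 for inhibitory neurons, 2 of 5 for astrocytes, 2 of 5 for oligodendrocytes, 1 of 5 for microglia and 1 of 5 for endothelial cells. Of all protein-coding genes 61.5% were open at a promoter in both libraries, and the inhibitory count lies near that share. Mean values of the open markers ran from 1.04 to 2.35 for excitatory neurons and from 1.41 to 1.62 for astrocytes, so these lists overlapped in level. Open markers of the other lists lay below the excitatory range. They stood at 0.602 to 1.03 for inhibitory neurons, 0.792 to 0.948 for oligodendrocytes, 0.426 for microglia and 0.497 for endothelial cells. In bulk tissue, fewer cells with an open site and a less open site in each cell cannot be told apart.

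Each of the 7 genes had, in replicate 1 and in replicate 2, a promoter peak, meaning a peak within 1 kb of an annotated transcription start site (TSS). Of all protein-coding genes 61.5% had such a peak in each of the libraries, and on the shorter and stricter peak list, where all 7 genes kept theirs, 55.6% did. The strongest promoter peak of 6 of the 7 genes lay below the median of 2.34 over the 13489 protein-coding genes open at a promoter in both libraries, whose quartiles were 1.28 and 3.65. Only Pou3f3 lay above it.

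**Figure D1:**
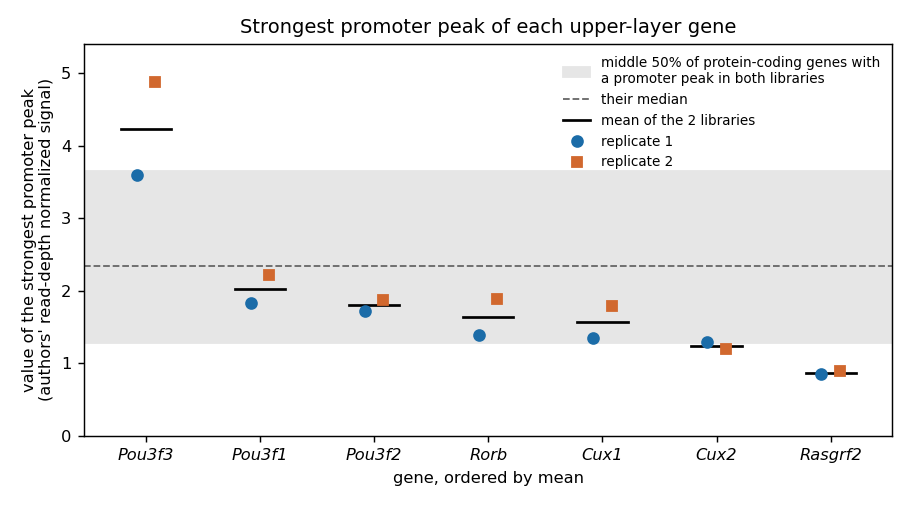
Value of the strongest promoter peak (authors' read-depth normalized signal, y axis) of each gene (x axis, ordered by mean) in replicate 1 (circles) and replicate 2 (squares), with the mean of the libraries as a line. Pou3f3 sits at 3.59 and 4.87, above the median of 2.34 (dashed) of protein-coding genes open at a promoter in both libraries, whose quartiles bound the grey band, and Rasgrf2 sits lowest at 0.848 and 0.896.

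The promoter DNA under these peaks is shown for the 4 genes whose strongest promoter region has at least 60 bases outside annotated untranslated exon sequence. Each sequence is the C57BL/6J reference of mm10, read on the strand of the gene from 5′ to 3′, with capitals for bases inside footprints of both libraries. The Rorb stretch ends at the TSS (chr19:19111197-19111380, minus strand), that of Rasgrf2 ends 205 bp upstream of its TSS (chr13:92131861-92132060, minus strand), that of Pou3f2 covers the bases with the most shared footprints of a wider region (chr4:22488516-22488815, minus strand), and that of Pou3f3 ends at its TSS (chr1:42695681-42695767, plus strand).
Rorb promoter: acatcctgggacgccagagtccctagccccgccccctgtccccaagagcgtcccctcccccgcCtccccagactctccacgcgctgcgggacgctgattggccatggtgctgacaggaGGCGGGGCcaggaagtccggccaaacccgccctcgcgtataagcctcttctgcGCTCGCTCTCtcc
Rasgrf2 promoter: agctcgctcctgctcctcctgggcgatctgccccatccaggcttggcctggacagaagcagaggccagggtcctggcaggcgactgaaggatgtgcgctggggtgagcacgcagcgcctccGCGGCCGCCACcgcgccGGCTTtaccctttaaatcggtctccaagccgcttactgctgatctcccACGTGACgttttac
Pou3f2 promoter: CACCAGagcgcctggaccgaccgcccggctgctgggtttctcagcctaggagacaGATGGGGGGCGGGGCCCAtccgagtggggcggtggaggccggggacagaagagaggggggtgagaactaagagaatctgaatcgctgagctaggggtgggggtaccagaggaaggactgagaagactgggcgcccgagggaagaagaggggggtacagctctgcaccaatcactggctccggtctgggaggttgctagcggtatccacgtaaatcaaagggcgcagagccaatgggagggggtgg
Pou3f3 promoter: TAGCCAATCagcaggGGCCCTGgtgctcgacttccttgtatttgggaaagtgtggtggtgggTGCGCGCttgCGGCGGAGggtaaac
The CAST/EiJ allele of the F1 mice may differ from these letters, and its part in the values was not tested.

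Motif letters were searched on both strands of a stretch of 120 to 300 bases of each gene's strongest promoter region, the bases under the peaks of both libraries or, for Pou3f2, the printed bases. CCAATCA, the letters searched for NFY, occurred once in the stretches of Rorb, Pou3f1, Pou3f2 and Pou3f3. It was not among the letters of those of Cux1, Cux2 and Rasgrf2. The shorter CCAAT within these letters was not counted, and it occurs again near the end of the printed Pou3f2 sequence. In Pou3f3 the CCAATCA match spans bases 4 to 10 of the printed sequence, and 6 of its bases fall in a footprint of both libraries. In Rorb (bases 95 to 101) and Pou3f2 (bases 221 to 227) no base of the match does. There a footprint of replicate 1 alone overlapped the match, by at least 4 bases. GGGCGGG, the core bound by SP and KLF factors, occurred once in the stretches of Cux1, Cux2, Pou3f1 and Pou3f2 and 2 times in that of Rorb. At Cux1 and Pou3f2 it overlapped, by at least 4 bases, a footprint found in both libraries. The Rorb matches (bases 28 to 34 and 144 to 150) have no base in such a footprint. That at bases 144 to 150 overlapped a footprint of replicate 2 alone, and the Pou3f1 match overlapped a footprint of replicate 1 alone. Near matches, such as the Rorb capitals GGCGGGGC, were not counted. In Pou3f2 the GGGCGGG match lies wholly inside a footprint of both libraries (bases 62 to 68). It is next to an E-box CAGATG (bases 54 to 59) of which 4 bases are footprinted. Over all regions called in both libraries, the central 200 bases of 6.26% of promoter regions held CCAATCA and those of 30.5% held GGGCGGG. Counted in the same way, 27 such promoter regions lay in the 7 genes and 50 kb on each side, including promoters of other genes. The NFY letters were in 4 of the 27, a share above that of all promoter regions. The SP and KLF core was in 7 of the 27, a share below it. Neither difference was tested. The stretches above had other lengths, so their counts cannot be set against these shares. A match describes these letters and does not show which protein covered them.

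Cux1 (ENSMUSG00000029705.17, chr5:136248135-136567490, minus strand) had its strongest promoter peak at 1.34 in replicate 1 and 1.79 in replicate 2 (1.57 ± 0.317, SD, n = 2), at percentile 32.4 of the open protein-coding genes. Paired values of a peak are given in the same order, replicate 1 before replicate 2, for the other genes. That peak lay 50 to 309 bp downstream of the 5′ end in replicate 1 and 50 to 269 bp in replicate 2, over the dense cluster of annotated start sites of the gene. Weaker promoter regions stood at 0.469 and 0.502 (605 bp upstream), at 0.752 and 0.645 (1.07 kb downstream) and at 0.525 and 0.457 (1.93 kb downstream). Cux1 thus had a string of open segments around its 5′ end. Inside the gene, an annotated coding start 204195 bp downstream of the 5′ end had a weak region in both libraries, at 0.401 and 0.542. The other 3 internal start sites, of which 2 are of coding transcripts, had no peak within 1 kb in either library.

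Cux2 (ENSMUSG00000042589.18, chr5:121856366-122050102, minus strand), the paralogue of Cux1, had its strongest promoter peak at 1.29 and 1.19 (1.24 ± 0.0711, SD, n = 2), at percentile 23.9. A second promoter region 379 bp upstream of the 5′ end stood at 1.26 and 0.794. Unlike at its paralogue, no internal start site of Cux2 had a promoter peak in both libraries. The start site 47758 bp into the gene had a peak at 0.554 in replicate 1 only. Those 125181 and 133368 bp into the gene had peaks at 0.742 and 0.600 in replicate 2 only.

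Rorb (ENSMUSG00000036192.15, chr19:18930605-19111196, minus strand) had its strongest promoter peak at 1.40 and 1.89 (1.64 ± 0.350, SD, n = 2), at percentile 34.3, directly over the TSS. A second region, 725 bp downstream, stood at 0.695 and 0.742. The start sites of the shorter Rorb transcripts, 110079 bp and more into the gene, had no peak within 1 kb in either library. The open start of Rorb was thus that of the long form.

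Rasgrf2 (ENSMUSG00000021708.17, chr13:91880400-92131656, minus strand) had the lowest promoter of the 7 genes, at 0.848 and 0.896 (0.872 ± 0.0346, SD, n = 2), at percentile 13.99. A second region 345 bp downstream of the 5′ end stood at 0.452 and 0.628. An internal coding start 143667 bp into the gene also had a region within 1 kb in both libraries, at 0.582 and 0.554. Another coding start, 100752 bp in, had none.

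Pou3f1 (ENSMUSG00000090125.3, chr4:124656807-124660655, plus strand) had a promoter peak at 1.84 and 2.22 (2.03 ± 0.272, SD, n = 2), at percentile 43.0. The region (chr4:124657261-124657640) is centred 644 bp downstream of the start that GENCODE gives, inside its untranslated exon sequence. RefSeq starts the gene 839 bp further along, at position 124657646, so the region lies 385 to 6 bp upstream of the RefSeq start. It also falls within 1 kb of the start of Gm2164, an antisense transcript that runs upstream. With promoters of 500 bp on each side of a TSS it was called for Pou3f1 in replicate 1 alone, where the peak begins 454 bp from the GENCODE start, against 534 bp in replicate 2.

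Pou3f2 (ENSMUSG00000095139.2, chr4:22482780-22488366, minus strand) had its strongest promoter peak at 1.72 and 1.87 (1.80 ± 0.106, SD, n = 2), at percentile 38.2, centred 265 bp upstream of the TSS. A region centred 265 bp downstream stood at 0.785 and 1.03, and one of 1080 bp centred 1.07 kb downstream, mostly over the coding sequence, at 0.881 and 0.645. The intronless gene was therefore open on both sides of its start.

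Pou3f3 (ENSMUSG00000045515.3, chr1:42695768-42703176, plus strand) had the highest promoter of the 7, at 3.59 and 4.87 (4.23 ± 0.903, SD, n = 2), at percentile 83.4. The peak lies over the TSS and within 1 kb of starts of the noncoding gene Pantr1, which runs in the opposite direction upstream, and of AC122898.1, a transcript that overlaps Pou3f3 on the same strand, so the region counts as a promoter of all 3. A second region 699 bp upstream stood at 1.12 and 1.11.

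Breadth separated the genes in another way than the highest peak did. Within 2.5 kb of the 5′ end, peaks covered 1830 bp of Cux1 in replicate 1 and 1669 bp in replicate 2, which is percentile 99.3 of the open protein-coding genes, whose median was 397 bp. Pou3f2 was covered over 2666 and 2013 bp, at percentile 99.9. Rorb had 818 and 1025 bp (percentile 89.98), Pou3f3 917 and 694 bp (85.4), Rasgrf2 440 and 860 bp (76.3), and Cux2 740 and 446 bp (72.2). Pou3f1 had 847 bp in replicate 1 and 220 bp in replicate 2 (66.3), the libraries differing most there as a ratio. Cux1 and Pou3f2 thus combined a broad open 5′ region with a strongest peak below the median. CpG dinucleotides in the 1 kb centred on the 5′ end numbered 122 at Cux1, 129 at Cux2, 88 at Rasgrf2, 84 at Pou3f2, 64 at Pou3f1, 51 at Pou3f3 and 40 at Rorb, against a median of 41 over all protein-coding genes and a 90th percentile of 92. The highest promoter, Pou3f3, was thus among the poorer in CpG of the 7.

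**Figure D2:**
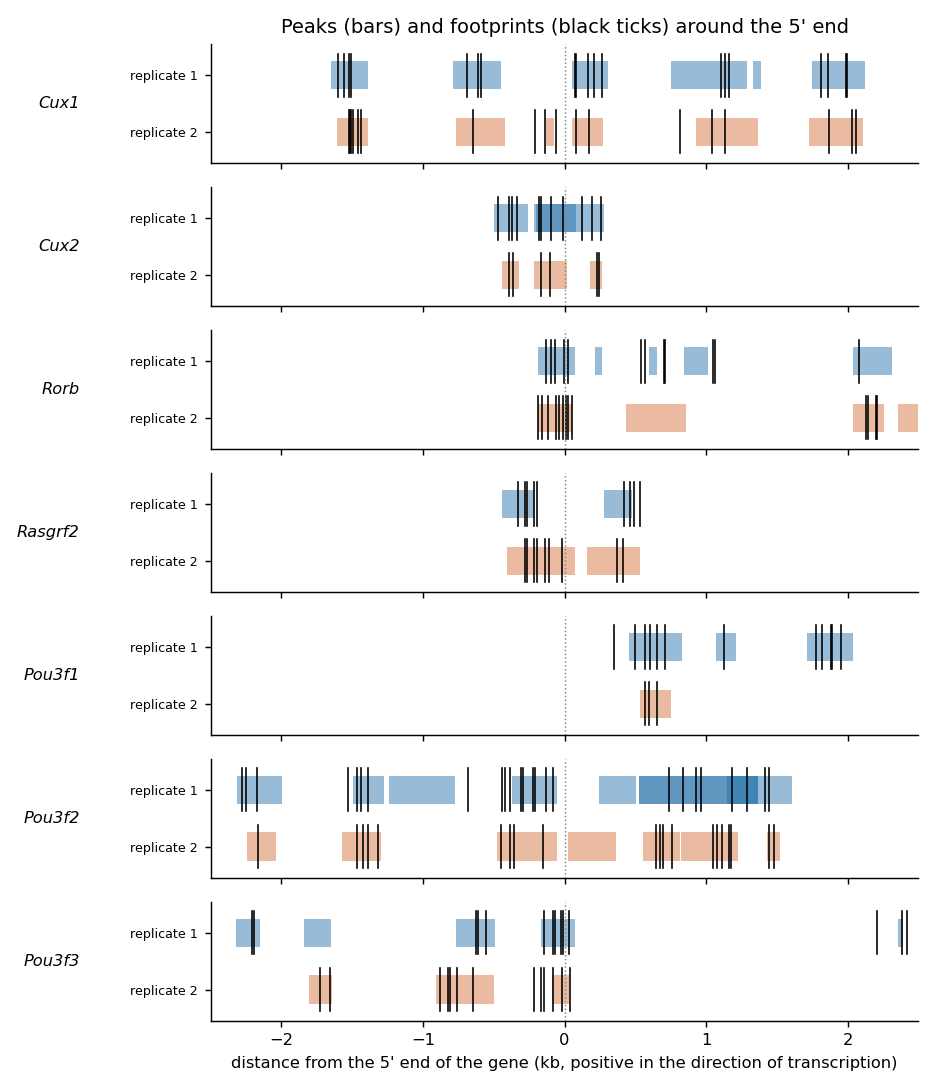
Peaks (bars; darker where peaks of a library overlap) and footprints (black ticks) of replicate 1 (upper row) and replicate 2 (lower row) within 2.5 kb of the 5′ end of each gene (x axis, kb, positive downstream). Cux1 and Pou3f2 are covered over 1669 to 2666 bp, Pou3f1 is covered only downstream of the annotated 5′ end, and the peak of Pou3f3 sits on it.

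In the order of mean promoter values, Pou3f3 was followed by Pou3f1, Pou3f2, Rorb, Cux1, Cux2 and Rasgrf2. Both libraries of Pou3f3 lay above both of Pou3f1, both of Cux1 above both of Cux2, and both of Cux2 above both of Rasgrf2. The neighbours from Pou3f1 to Cux1 overlapped between libraries and are not ranked apart by these data. Summing all promoter peaks of a gene instead of taking the strongest moved Cux1 to the second place and Pou3f1, with its lone promoter peak, to the last at 2.03. That last place depends on the GENCODE start of Pou3f1. Within 1 kb of its RefSeq start, replicate 1 alone had a further peak at 0.655 and another at 0.639, which the sum leaves out. When promoters were widened to 2.5 kb either way, Cux2 stood at 1.62, above Cux1 at 1.57, through an intronic region 178 kb downstream of its 5′ end, so the order of these paralogues depends on the promoter width.

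Promoter peaks of other genes of cortical layers were counted likewise, and 9 of 11 other upper-layer genes had one in both libraries, the highest being Nectin3, a cell adhesion gene (3.02 ± 0.565), and Lmo4, a transcriptional cofactor (2.94 ± 0.584; SD, n = 2 each), while Rspo1 and Scnn1a had none. Of deep-layer genes 12 of 13 had one, led by Tle4, a transcriptional corepressor (9.07 ± 3.16), Pcp4, a calmodulin-binding protein gene (3.39 ± 0.302) and Rprm, a cell cycle regulator (2.96 ± 0.243; SD, n = 2 each), and Fezf2 had none. Of the relatives of the 7 genes 9 of 13 had one, led by Pou2f1 (3.76 ± 0.735), Onecut2 (2.33 ± 0.0695) and Pou2f2 (1.81 ± 0.126; SD, n = 2 each), and Pou4f1 and Pou5f1 were among those with none. Of all protein-coding genes 61.5% had one, and the 69.2% of the relatives was close to that share. Other upper-layer genes stood at 81.8% and deep-layer genes at 92.3%, on short lists, and the differences were not tested. The median of the mean promoter values was 1.64 for the 7 genes, 1.41 for the other upper-layer genes, 1.00 for the deep-layer genes and 1.26 for the relatives. By the largest absolute log2 difference over both libraries, the layer gene nearest in level was Etv1 for Cux1 (0.11), Inhba for Cux2 (0.33), Bcl11b for Rorb (0.18) and for Pou3f2 (0.12), Foxp2 for Rasgrf2 (0.07), Unc5d for Pou3f1 (0.10) and Pcp4 for Pou3f3 (0.43). A deep-layer gene was the nearest in level for 5 of the 7 genes. The genes to choose from were 12 deep-layer and 9 other upper-layer genes, so deep-layer genes were also the larger part of them. The count therefore does not set the 7 genes nearer to either layer.

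In the genes and 50 kb on each side, overlapping peaks of the libraries were merged into 135 regions. Both libraries called 78 of them (57.8%), against 53.6% of the 109538 merged regions in the genome. Of these shared regions 18 lay at the genes' own promoters, 9 at promoters of other genes, 23 in introns and 1 in an exon of the 7 genes, 9 in introns and 2 in exons of other genes, and 16 between genes. Per 100 kb, the density of shared regions was 12.3 at Pou3f2 (13 regions), 6.52 at Pou3f3 (7 regions), 6.13 at Cux2 (18 regions), 5.78 at Pou3f1 (6 regions), 4.05 at Cux1 (17 regions), 2.85 at Rasgrf2 (10 regions) and 2.49 at Rorb (7 regions), against a median of 3.81 for all protein-coding genes. On the shorter peak list the order changed, with 6.63 at Pou3f2, 3.85 at Pou3f1, 3.06 at Cux2, 1.91 at Cux1, 1.86 at Pou3f3, 1.78 at Rorb and 1.14 at Rasgrf2. Since long genes have sparser windows, each was also set beside protein-coding genes within 1.5-fold of its length. Cux2 then stood at percentile 95.5, Pou3f2 at 95.0 and Cux1 at 86.3. Pou3f3 (68.6), Pou3f1 (64.5), Rasgrf2 (57.3) and Rorb (43.0) stood nearer the middle.

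**Figure D3:**
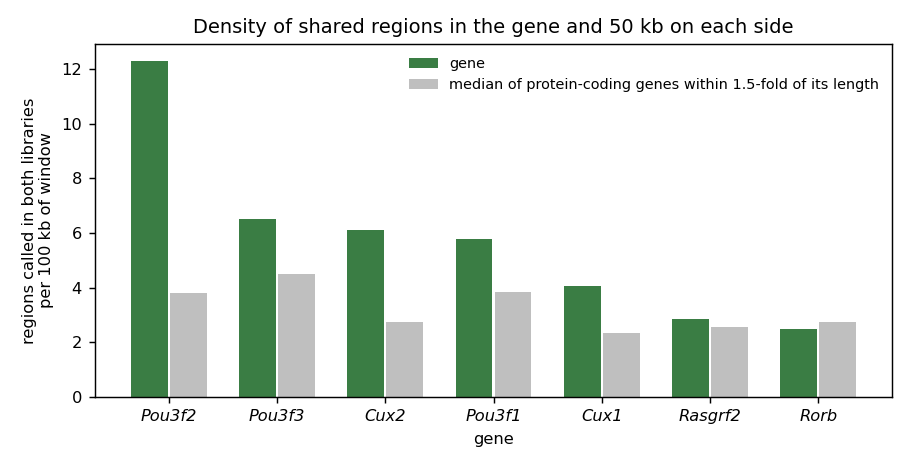
Regions called in both libraries per 100 kb of window (y axis) for each gene (green bars) and the median of protein-coding genes within 1.5-fold of its length (grey bars). Pou3f2 has 12.3 per 100 kb, Cux2 6.13 and Cux1 4.05, each above the median of its length class, and Rorb at 2.49 is below its own.

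The layout of the shared regions differed between the genes. All 13 shared regions of the Pou3f2 window lay between 10.3 kb upstream and 11.2 kb downstream of its 5′ end, and the rest of the 50 kb flanks held none. The highest of them outside its own promoter stood at 1.23 and 1.06 (11.2 kb downstream, between genes), at 1.03 and 0.799 (6.74 kb upstream, between genes) and at 0.785 and 0.988 (3.02 kb upstream, at a promoter of the transcript Gm30731). All 7 shared regions of the Pou3f3 window lay upstream, from 11.3 kb to the TSS itself. Of those outside its own promoter the highest stood at 2.18 and 1.70, 4.36 kb upstream in an intron of Pantr1, followed by 1.09 and 0.982 at a promoter of Pantr1 and 1.01 and 0.879 in its intron 8.88 kb upstream. Pou3f1 differed from both relatives, with its shared regions spread over the whole window. Its highest outside the promoter were 1.94 and 1.68 at the promoter of Utp11 (36.8 kb downstream), 1.41 and 1.28 between genes 18.4 kb downstream, and 1.21 and 0.948 between genes 52.3 kb downstream.

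In Cux1, Cux2 and Rasgrf2 the highest region of the window was not the own promoter, whereas in Rorb and the POU genes it was. In the Cux1 window it was the promoter of Prkrip1, 368 kb downstream of the Cux1 5′ end, at 3.11 and 3.45. An intron near the 3′ end of Cux1 (314 kb downstream) followed at 2.11 and 1.77, and the promoter of Sh2b2 at 1.76 and 1.43. In the Cux2 window the shared promoter of 4933437G19Rik and Pheta1 stood at 2.52 and 2.20, a region between genes 39.0 kb upstream of Cux2 at 2.36 and 2.36, and the promoter of Sh2b3 at 1.82 and 1.66. Both libraries of that upstream region lay above both of the Cux2 promoter. In Rasgrf2 an intronic region 223 kb downstream stood at 1.87 and 1.78, also above its promoter in both libraries, followed by an exonic region 249 kb downstream at 1.07 and 1.02 and an intronic region 157 kb downstream at 0.661 and 1.16. The Rorb window had the lowest maximum outside promoters of the 7, with introns at 0.661 and 1.06 (106 kb downstream) and at 0.582 and 1.03 (136 kb downstream) and an intron of Trpm6 at 0.712 and 0.594. No shared region lay in the 50 kb upstream of the Rorb promoter.

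**Figure D4:**
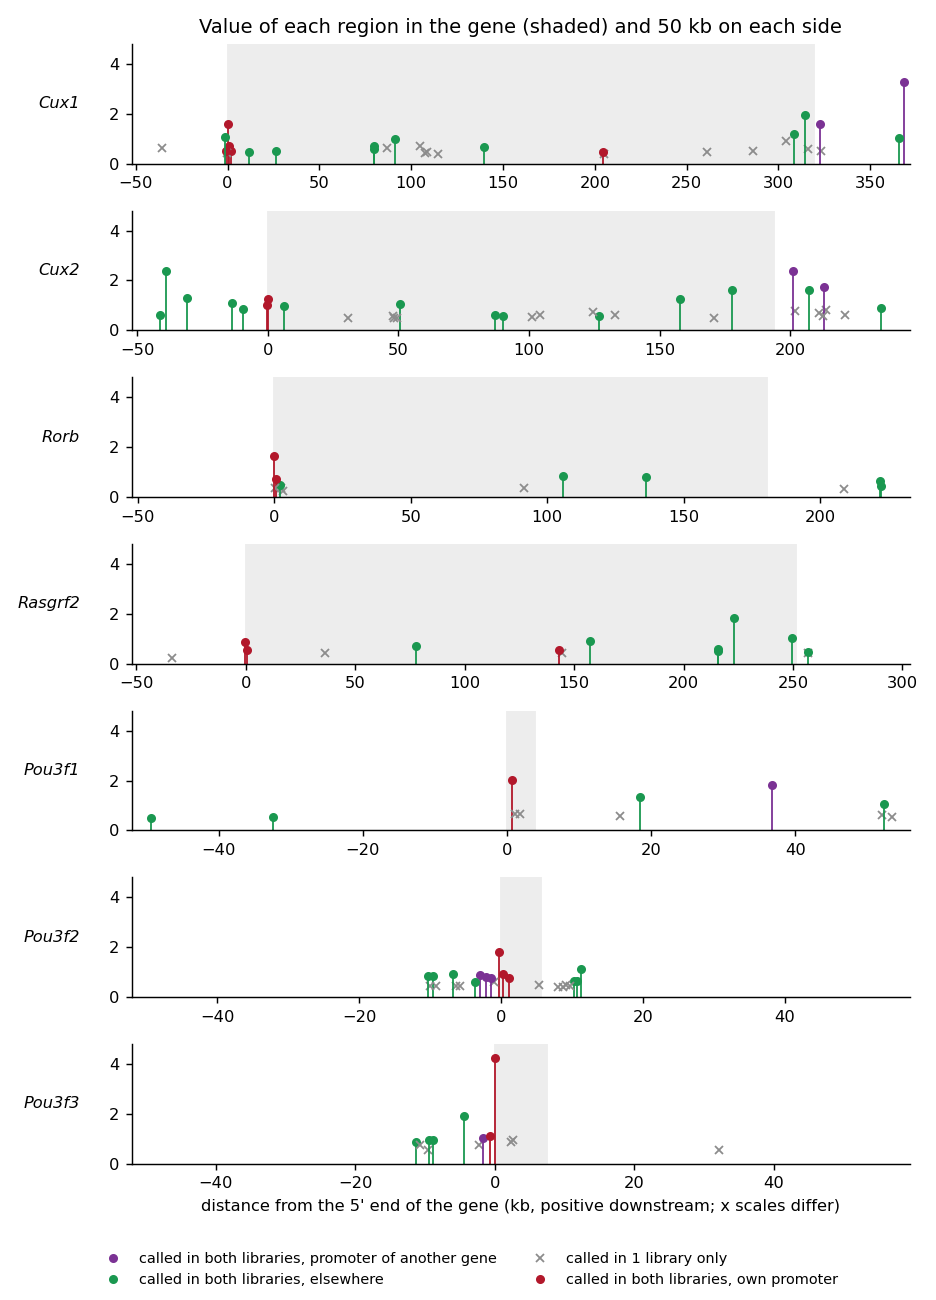
Value (mean of both libraries, or the value of the calling library; authors' signal, y axis) of each region in the gene (shaded) and 50 kb on each side, by distance from the 5′ end (x axis, kb, positive downstream; scales differ). Circles are regions called in both libraries, coloured by own promoter, promoter of another gene or elsewhere, and crosses are regions called in 1 library; the shared regions of Pou3f2 and Pou3f3 lie within 12 kb of the 5′ end, and those of Pou3f3 all lie upstream.

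The strongest region outside promoters that held a footprint in both libraries is shown for 6 of the genes, since several of them hold a sequence resembling the motif of CTCF, the factor that anchors chromatin loops. Each is the mm10 reference on the strand of the gene, with capitals for bases in footprints of both libraries. They lie at chr5:136253001-136253160 (minus strand, intron of Cux1), chr5:122089001-122089200 (minus strand, between genes upstream of Cux2), chr13:91908341-91908520 (minus strand, intron of Rasgrf2), chr4:124675141-124675319 (plus strand, between genes downstream of Pou3f1), chr4:22477061-22477220 (minus strand, between genes downstream of Pou3f2) and chr1:42691321-42691460 (plus strand, intron of Pantr1 upstream of Pou3f3).
Cux1 distal: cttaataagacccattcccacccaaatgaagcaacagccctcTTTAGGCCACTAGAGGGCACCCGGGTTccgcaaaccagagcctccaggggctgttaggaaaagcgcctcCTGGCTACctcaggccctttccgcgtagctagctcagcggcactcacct
Cux2 distal: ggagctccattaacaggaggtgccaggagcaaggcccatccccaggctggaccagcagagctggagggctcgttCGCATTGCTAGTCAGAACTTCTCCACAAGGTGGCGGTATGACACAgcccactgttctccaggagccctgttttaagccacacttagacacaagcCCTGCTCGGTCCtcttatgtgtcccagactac
Rasgrf2 distal: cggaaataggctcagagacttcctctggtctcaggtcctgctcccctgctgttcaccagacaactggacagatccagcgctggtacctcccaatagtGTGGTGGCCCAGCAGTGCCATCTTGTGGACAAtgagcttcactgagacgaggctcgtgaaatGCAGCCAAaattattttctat
Pou3f1 distal: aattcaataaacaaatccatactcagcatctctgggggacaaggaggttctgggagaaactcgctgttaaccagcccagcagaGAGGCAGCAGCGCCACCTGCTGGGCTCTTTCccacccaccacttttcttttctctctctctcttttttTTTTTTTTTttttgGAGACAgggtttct
Pou3f2 distal: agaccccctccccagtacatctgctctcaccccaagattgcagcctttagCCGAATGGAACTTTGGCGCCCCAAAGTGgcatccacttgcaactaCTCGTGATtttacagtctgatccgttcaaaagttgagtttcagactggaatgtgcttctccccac
Pou3f3 distal: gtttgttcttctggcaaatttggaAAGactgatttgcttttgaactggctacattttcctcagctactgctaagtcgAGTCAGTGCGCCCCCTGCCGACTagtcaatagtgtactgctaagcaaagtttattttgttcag
In none of these sequences, or those of the promoters above, was a near-identical copy found elsewhere in the chromosomes, at 90% identity over 80% of the length.

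A full match to the core CTCF motif lies in the capitals of the Cux1 sequence, as CCACTAGAGGGC at bases 49 to 60, and of the Pou3f1 sequence, as GCCACCTGCTGG on the opposite strand at bases 95 to 106. With 1 mismatch allowed, the Cux2 sequence also holds a match, CCACAAGGTGGC, and the Rasgrf2 sequence CCACAAGATGGC on the opposite strand, both inside footprints of both libraries. The Pou3f2 and Pou3f3 sequences hold no match at that limit, nor does the corresponding region of Rorb (chr19:19005242-19005440, intron). Looser matches were not searched, so these 3 regions are not shown to lack a CTCF site. A weaker Rorb intron region 136 kb downstream, named here for its match, holds CCACTAGGTGGC (chr19:18975209-18975220) inside a footprint that spans the same bases, 18975200 to 18975226, in both libraries. Over the 51 shared regions outside promoters, 9 (17.6%) held a full match in their central 200 bases, against 11.0% of all 35958 such regions. With 1 mismatch allowed, a setting added after the data were seen, 14 (27.5%) did, against 29.1%. The share near these genes was thus above that of all regions by the strict letters and below it by the looser ones.

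Motifs of the factors that the genes themselves encode were looked for in the same way. No shared region of the windows held the POU octamer ATGCNAAT, the CUX letters AATCAAT or the ROR letters TAGGTCA in its central 200 bases (0 of 78 each), against 2.05%, 1.01% and 0.994% of all regions. With shares this low among all regions, the absence of matches says nothing about these factors. E-boxes CAGATG were in 15 of the 51 regions outside promoters, against 24.9% of all such regions, and AP-1 letters TGANTCA in 4 of the 51, against 12.8%.

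The windows held 306 footprints in replicate 1 and 252 in replicate 2, with a median width of 9 bases in both. Of those of replicate 1, 112 (36.6%) overlapped a footprint of replicate 2, against 43.6% of all footprints of that library. Of those of replicate 2, 109 (43.3%) overlapped one of replicate 1, against 49.5% of all. Inside a peak of the same library lay 86.9% of the footprints in replicate 1 and 92.5% in replicate 2, against 89.2% and 91.7% of all footprints. Both overlap shares near these genes lay below those of all footprints, a difference that was not tested. Cux2 held the most in replicate 1, 74 against 51 in replicate 2, of which 33 (44.6%) and 30 (58.8%) were shared. Cux1 held 63 in replicate 1 and, as the most in that library, 67 in replicate 2, of which 26 (41.3%) and 29 (43.3%) were shared. Pou3f2 held 60 and 41, of which 13 (21.7%) and 13 (31.7%) were shared, the lowest share of replicate 1 among the 7 genes. Pou3f1 held 38 in replicate 1 and 15 in replicate 2, and 11 of each were shared. The strongest peak of Pou3f3 had all 6 of its replicate 1 footprints overlapped by footprints of replicate 2.

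The libraries gave similar values in the regions they shared. Over the 78 regions the log2 ratio (replicate 1 over replicate 2) had a median of -0.05 and an SD of 0.39, against -0.14 and 0.39 over all 58659 shared regions. Only 3 of the 78 regions differed by more than 2-fold. The ratios of the strongest promoter peaks lay within 0.766 SD of the median of all shared regions for each of the 7 genes. Regions called in only 1 library were weak. The 33 of replicate 1 had a median of 0.520 and the 24 of replicate 2 a median of 0.465, against 0.788 and 0.928 for the shared regions in the same libraries. In the library without the call, 5 of the 33 and 7 of the 24 still held a position listed in the authors' table at a false discovery rate of at most 0.05. Among all regions called in replicate 1 alone, the highest stood at 0.938, over the exon of Pou3f3, 2.66 kb downstream of its start. It held no listed position in replicate 2. The highest called in replicate 2 alone stood at 0.925, in an intron of Cux1, 304 kb downstream, and held listed positions in replicate 1.

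**Figure D5:**
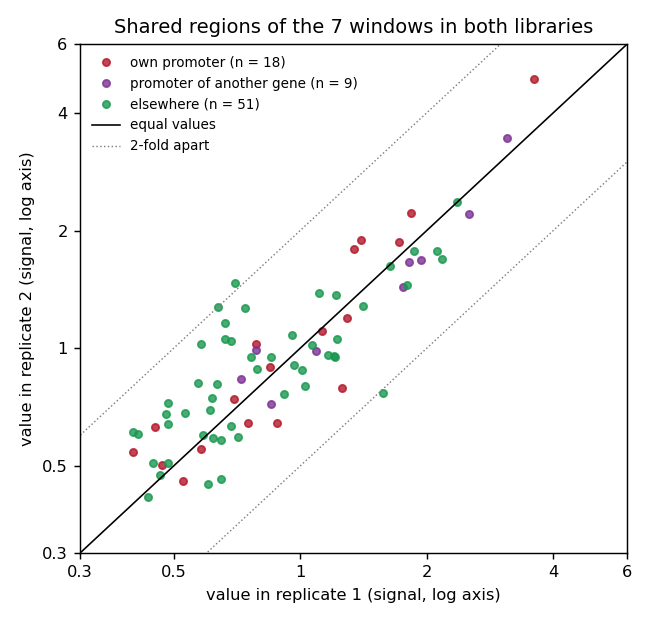
Values of the 78 shared regions in replicate 1 (x axis) and replicate 2 (y axis; authors' signal, log axes), with equal values on the solid line and 2-fold differences on the dotted lines. The 18 own promoter regions reach 3.59 and 4.87 at Pou3f3, and 3 of the 78 regions lie beyond the dotted lines.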

How the data were processed

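The authors deposited, for each library and on mm10, peak lists at a looser and a stricter threshold, a list of footprints and a table of false discovery rates. Peaks were called in each library by itself, per the deposited text files; aligner and callers were not given in the sources used here. The peak signal was read-depth normalized by the authors. The deposited footprint lists carry the constant 0.01 in place of a score, and the deposited false discovery rates are p-values adjusted per position, listed up to 0.05. Peaks and footprints were joined to GENCODE release M21 with Python 3.11.15, numpy 2.4.6 and pysam 0.24.0, and an overlap needed 1 bp. The overlap search was checked on simulated data. Percentiles are over protein-coding genes open at a promoter in both libraries, and those of densities over protein-coding genes of similar length. Motif matches in footprints needed 4 overlapping bases, and 18 motifs were searched. Named are all 7 genes, their own promoter regions, the 3 highest shared regions elsewhere in each window, up to 3 genes of each context list by level or absence, and the nearest layer gene. Some genes of the context lists are not reported here by name. The members and lists were chosen with earlier results of these data known. No test was run, since there is 1 group. All 7 had a promoter peak also in either library alone.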

Additional observations from a re-analysis of the deposited data

How the results depend on the processing

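All 7 genes kept a promoter peak in both libraries on the shorter list, with promoters of 2.5 kb, at the gene 5′ end only, at coding start sites only and in the stronger 50% of peaks, and 6 did with promoters of 500 bp, where Pou3f1 lost its own. Shared regions in the windows numbered 78, against 39 on the shorter list, 38 in the gene bodies alone and 50 in the stronger 50% of peaks; the first and last use fewer peaks and the second less sequence. Shared footprints numbered 112, against 72 with a reciprocal overlap of 50% and 36 in the gene bodies alone. Without replicate 1 or replicate 2 nothing is left to share, so the counts of that setting, 252 and 306, are all footprints of the library kept. Of 41 alternatives for promoter values, leaving out a library not counted, 34 moved by less than 1 SD and 7 moved, all upward: 6 from summing the peaks, and Cux2 with promoters of 2.5 kb. Of 35 for densities 25 moved, and here the settings that leave out a library are counted. In those settings the density is of all regions of the library kept, so a move there does not concern shared regions. No paired analysis was possible because the samples form 1 group. The unknown depth limits the lowest values, and peaks near the calling threshold were often in 1 library only.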
